A study of Mus musculus with 9 samples.

Results

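The proteins of the cytosolic ribosome were examined at the transcript level in the forming temporomandibular joint, the hinge of the lower jaw, of mouse embryos at embryonic day 16.5. Members were all probe sets of the array whose only gene symbol is Rpl or Rps followed by a number, with an optional a, l, x or y, without the S6 kinases, pseudogenes and mitochondrial ribosomal proteins. This gave 96 probe sets of 43 genes, out of 45037 probe sets and 18193 named genes. Of the 43 genes, 22 encode proteins of the large subunit (Rpl) and 21 of the small subunit (Rps). Each of 3 groups was profiled on 3 arrays: the condyle, which is the articular head of the mandible, the fossa, in which it moves and which belongs to the skull, and the whole body. Every sample, the whole body included, carries the same entry of laser capture from frozen tissue; how the whole body was captured is not described, and the labels name no strain, genotype or drug. The samples are described as biological triplicates without naming embryos, so the p-values cover the spread among the arrays at hand, which may be technical. The whole body is a mixture of all tissues, so a difference from it sets 1 tissue against many.

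A ribosome contains about the same number of copies of each of its proteins, and the mRNAs for them are among the most abundant in growing cells. Most of these mRNAs begin with a terminal oligopyrimidine tract, a run of C and T just at the 5′ end, through which mTOR signalling sets how much of them is translated. Excess ribosomal proteins are usually degraded, and some of them, such as Rpl5 and Rpl11, bind Mdm2 and so stabilise p53. Several members have a paralog with a narrower expression, among them Rps27 and Rps27l, Rpl22 and Rpl22l1, and Rpl39 and Rpl39l. Skeletal tissue is sensitive to ribosomal protein dosage: loss of 1 copy of Rpl38 changes the pattern of the vertebrae in the Tail-short mouse.

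Annotated start sites of the members were searched for runs of C or T and for short motifs. RefSeq (assembly GRCm38.p6) lists start sites for 37 of the 43 genes, 45 starts in all. A run of 10 or more C or T within 15 bases either side of the start was present at 11 of the 45 starts (24.4%), against 5.34% of 32851 starts of all genes. The same length of A or G was present at 0 member starts and at 5.80% of all starts. The motif CCGGAAG, read on both strands over the 300 bases around the start, was present at 18 member starts (40.0%) and 8.86% of all starts. The motif AAGATGG, searched in the same way, was present at 7 member starts (15.6%) and 6.34% of all starts. In the following windows of 30 bases, which hold 15 bases on each side of the annotated start, capitals mark the longest pyrimidine run. They are shown for 4 genes with a run of 10 or more and for 4 genes whose transcripts are described in detail below.
Rpl35 (chr2:39005117-39005146, minus strand): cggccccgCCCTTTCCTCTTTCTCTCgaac
Rpl7a (chr2:26910792-26910821, plus strand): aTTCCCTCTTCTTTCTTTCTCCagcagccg
Rpl13a (chr7:45128731-45128760, minus strand): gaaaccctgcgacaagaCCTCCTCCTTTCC
Rpl4 (chr9:64173372-64173401, plus strand): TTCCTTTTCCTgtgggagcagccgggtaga
Rps27l (chr9:66946071-66946100, plus strand): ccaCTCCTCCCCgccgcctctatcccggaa
Rps27 (chr3:90213634-90213663, minus strand): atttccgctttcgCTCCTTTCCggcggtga
Rps7 (chr12:28635939-28635968, minus strand): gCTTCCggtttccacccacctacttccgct
Rpl22 (chr4:152324421-152324450, plus strand): cgctgCTTCTggaatgttccagctcccact
The longest runs are 18 bases in Rpl35 and 21 in Rpl7a, but 9 in Rps27l and 5 in both Rps7 and Rpl22. The run of 11 in Rpl4 lies wholly before the annotated start, while that of 9 in Rps27 spans it. Rps27l and Rpl22 each have 2 annotated starts, of which the outermost is shown. A start annotated a few bases away would move these windows, so a missing run says only that these letters are not in this window.

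The arrays differed in ways that bear on all values below. The share of probe sets above background was 45.4% to 46.9% for condyle, 37.4% to 45.9% for whole body and 30.3% to 43.8% for fossa, with the lowest share on fossa array 1. The 95th percentile of the log2 values averaged 9.06 for condyle, 8.95 for whole body and 8.40 for fossa, so the bright part of the fossa arrays sat lower. Results are therefore given as deposited and after quantile normalization, which gives all arrays the same distribution. Control probe sets for 18S ribosomal RNA averaged 13.2 to 13.5 (log2) on the whole body arrays, 5.86 to 9.63 on the condyle arrays and 6.91 to 9.52 on the fossa arrays. The 3 prime minus 5 prime difference of the Gapdh controls ran from 3.69 on fossa array 1 to 6.86 on condyle array 3. Chondrocyte markers averaged 8.95 to 9.86 (log2) in condyle, 8.50 to 10.1 in fossa and 5.46 to 5.73 in whole body, and 9 of 9 were above background on all condyle arrays and 8 of 9 on all fossa arrays. Hepatocyte markers averaged 3.94 to 4.45, 2.80 to 4.48 and 11.2 to 11.7, and erythroid markers 5.17 to 5.57, 4.43 to 5.36 and 9.16 to 9.41. Of 8 hepatocyte markers Apoa1, Serpina1b, Fgb and Ahsg were at background in condyle and Alb, Apoa1 and Fgb in fossa. Liver and blood markers thus moved with the whole body group, and their part in the differences described here was not tested. In bulk tissue, fewer cells of a type and less RNA per cell cannot be told apart.

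The ribosomal protein transcripts were among the brightest signals on every array. The median member stood at percentile 98.4 to 99.1 of its array, and the 96 probe sets together carried 8.99% to 10.7% of all signal. Across the 96 probe sets, which are not independent, arrays correlated at 0.976 to 0.998. Each gene was represented by its probe set with the highest mean over the 9 arrays. Of these, 31 averaged above 10 on the log2 scale of intensity, 27 above 12 and 13 above 14. Representing probe sets of 39 genes were above background on all 9 arrays. The brightest were Rpl35 (15.50), a protein beside the exit of the peptide tunnel, Rpl13a (15.44) and Rps20 (15.20). Levels of different probe sets depend on the probes as well as on the mRNA, so this order ranks signals and not transcripts.

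**Figure D1:**
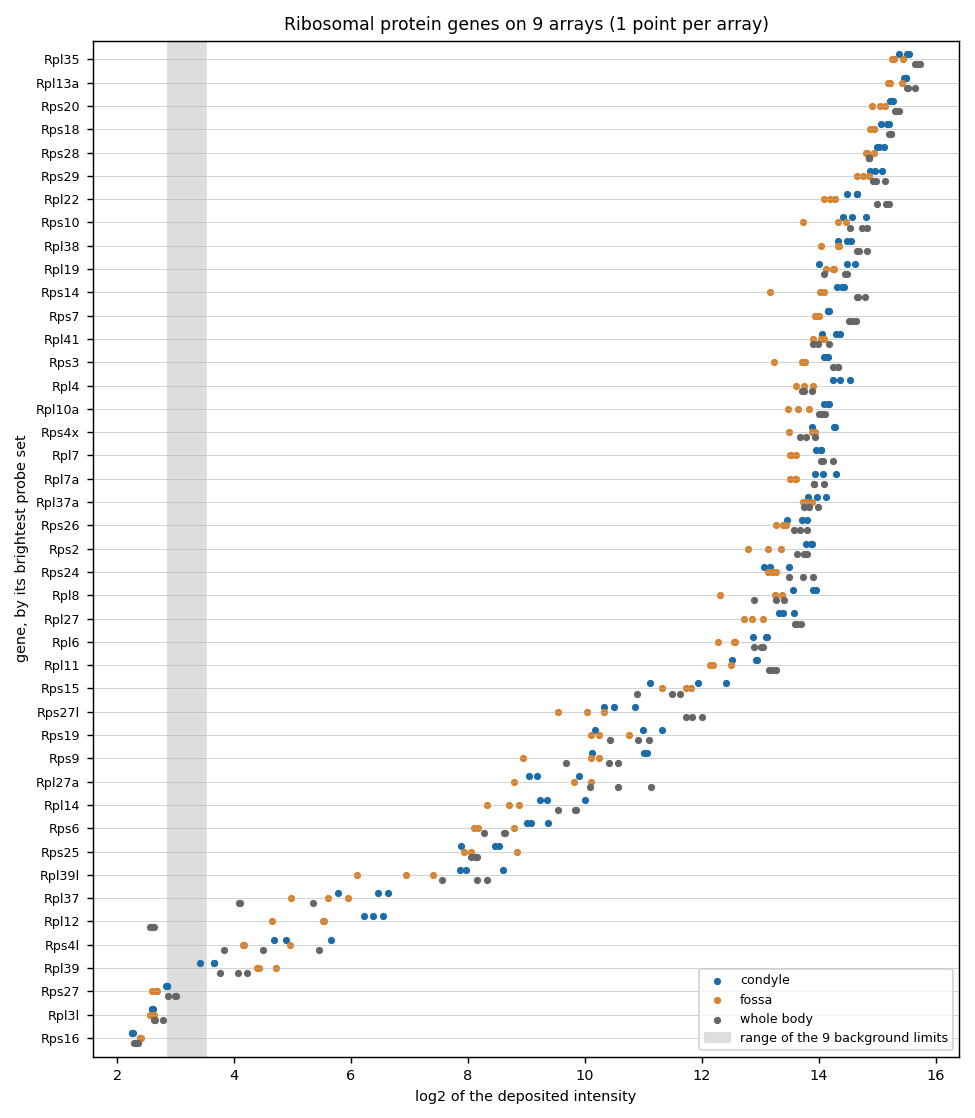
Log2 of the deposited intensity (x axis) of the representing probe set of each of the 43 genes (y axis), with 1 point per array in condyle, fossa and whole body. Most genes lie above 12, the fossa points tend to lie left of the others, and Rps27, Rpl3l and Rps16 lie at background, whose limits on the 9 arrays span the grey band.

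Probe sets of 3 genes were at background in all groups. Rpl3l, a paralog of Rpl3 known from striated muscle, averaged 2.63, Rps16 2.32 and Rps27 2.82. Rps16 and Rps27 are parts of every ribosome, so these values describe the probe sets and not the genes. A further 109 probe sets list several symbols, at least 1 of them of this family, and were left out, and Rpl3, Rpl5, Rpl10, Rpl10l, Rpl36a and Rpl36al have no probe set of their own under the naming rule. For the same reason the dim probe sets of Rpl12, Rpl37, Rpl39 and Rps4l are read only as single probe sets. Rps4l averaged 4.69 and its X-linked relative Rps4x 13.90, and neither passed in any comparison on either scale.

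The first comparison asks which members differ between condyle and the whole body. Few did: Rps27l, Rps7 and Rpl22 were lower in condyle, Rpl4 and the dim probe set of Rpl12 were higher, and the other 38 genes did not pass. That is 2 genes higher, where 7.05% of all genes were, and 3 lower, where 2.91% were. After quantile normalization the same 5 genes passed in the same direction, with 3.03% and 3.25% of all genes. By probe set, 6 of 96 were higher and 10 lower at an adjusted p under 0.05 (limma, Benjamini-Hochberg over all probe sets), where 4.21% of all probe sets were higher and 1.99% lower. After quantile normalization these were 5 and 9, with 1.87% and 2.05% of all probe sets. The median member differed by -0.08 (log2) and by -0.04 after quantile normalization, with -0.05 and -0.0045 over all probe sets. The count of 16 fell to 7 without condyle array 1, to 8 without condyle array 3 and to 8 without whole body array 2.

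Fossa against the whole body gave many more calls as deposited. Of the 43 genes, 19 were lower in fossa, where 15.9% of all genes were, and 1 was higher, where 4.20% were. Of the 96 probe sets 44 were lower and 5 higher, where 13.1% and 3.69% of all probe sets were called. After quantile normalization, 14 probe sets were lower and 10 higher, with 8.56% and 7.71% of all probe sets, and by gene 4 were lower and 5 higher, with 9.75% and 8.47% of all genes. The median member differed by -0.40 as deposited and by -0.09 after quantile normalization, beside -0.08 and -0.0040 over all probe sets. The general decrease in fossa was thus seen on the deposited scale, and on the quantile scale the members' counts in the 2 directions were nearly even. Genes lower on both scales were Rps27l, Rps7, Rpl22 and, at background, Rps27. Without fossa array 1 the deposited count was 39 lower and 5 higher. This comparison shares its whole body arrays with the first.

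Condyle against fossa mirrored this. As deposited 30 probe sets were higher in condyle and 5 lower, where 12.0% of all probe sets were higher and 4.02% lower. By gene 16 were higher, where 16.2% of all genes were, and 2 lower, where 2.82% were. After quantile normalization 3 probe sets were higher and 4 lower, with 5.85% and 5.30% of all probe sets, and by gene 1 was higher and 2 lower, with 5.60% and 4.22% of all genes. In all, 38 of the 96 differences changed sign. The median difference was 0.42 as deposited and 0.02 after quantile normalization, beside 0.04 and -0.0054 over all probe sets. Of the 5 probe sets called lower as deposited, 3 were at background in both tissues. The count of 35 was 21 without condyle array 1, 18 without condyle array 2 and 23 without condyle array 3. In the moderated F test over the 3 groups, 50 probe sets passed as deposited, with 21.1% of all probe sets, and 25 after quantile normalization, with 16.4%.

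**Figure D2:**
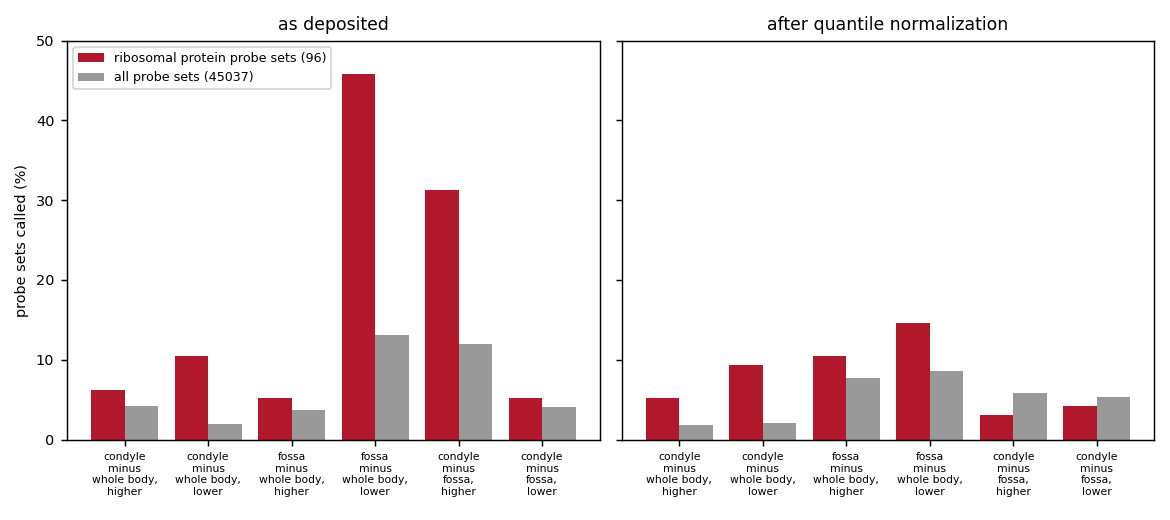
Share of probe sets past an adjusted p of 0.05 (y axis, percent) in each comparison and direction (x axis), for the 96 ribosomal protein probe sets and for all 45037, as deposited on the left and after quantile normalization on the right. The 2 tall bars for members, lower in fossa than in whole body and higher in condyle than in fossa, shrink after quantile normalization.

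Most of the 45037 probe sets were dim, while most members were bright. Among 21490 probe sets above background on at least 3 arrays, with 84 members, condyle minus fossa had a median of 0.47 for members and 0.50 for all. There 22 members were higher and 1 lower, with 23.5% and 0.977% of all. The members' share was thus near that of all probe sets past this filter. The filter asks only for signal above background and does not match probe sets to the members' brightness. In fossa against whole body 35 of the 84 were lower and 4 higher, with 19.3% and 4.57% of all, and the medians were -0.46 and -0.28. In condyle against whole body 8 were higher and 8 lower, with 13.7% and 5.15% of all, and the medians were -0.10 and 0.16.

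Separation of the arrays was counted as well. In condyle against whole body 37 of the 96 probe sets had all 3 condyle values below all 3 whole body values and 11 had them above, while 43.3% and 12.5% of all probe sets did so, a share near the background. After quantile normalization 25 lay below and 17 above, with 14.7% and 17.9%. In fossa against whole body 59 lay below and 10 above, with 29.5% and 10.8% of all probe sets, and after quantile normalization 36 and 24, with 21.9% and 20.1%. In condyle against fossa 52 lay above and 6 below, with 27.0% and 23.6%, and after quantile normalization 10 and 10, with 19.5% and 20.9%. The subunits were counted apart, with no test of their difference. In fossa 11 of 22 large subunit genes and 8 of 21 small subunit genes were called lower as deposited, with medians of -0.38 and -0.31, and after quantile normalization 1 and 3 were, with medians of -0.02 and 0.0030. Of all genes, 15.9% were called lower in fossa as deposited and 9.75% after quantile normalization.

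The size of the difference depended on how bright a probe set was. In bands of mean level chosen after the values were seen, the median difference of fossa from whole body was -0.06 in 21 probe sets below 6 (log2), -0.54 in 14 between 6 and 10, and -1.11 in 14 between 10 and 12. It was -0.60 in 27 probe sets between 12 and 14, -0.28 in 13 between 14 and 15, and -0.31 in 7 above 15. After quantile normalization the band from 10 to 12 still had the lowest median, -0.58, and the other bands lay between -0.18 and 0.06. In condyle the same band had -0.70 as deposited and -0.80 after quantile normalization, while all others lay between -0.17 and 0.15 as deposited. The same held within single genes. Rpl35, with 5 probe sets above background, differed in fossa by -0.36, -0.47 and -0.38 at levels of 15.50, 15.42 and 15.35, by -0.85 at 12.50 and by -1.34 at 10.52. Rpl13a, a large subunit protein that can also leave the ribosome and silence inflammatory mRNAs, differed by -0.29 at 15.44 and by -1.02 to -1.39 in its 3 probe sets at 12.91 to 12.26. In condyle 4 of these 5 Rpl35 probe sets were called lower as deposited. They differed by -0.29 at 15.42 (adjusted p = 0.0139) and -0.17 at 15.35 (adjusted p = 0.0447), which quantile normalization ended, and by -0.37 ± 0.06 at 12.50 (SE, adjusted p = 0.0201) and -0.78 ± 0.13 at 10.52 (adjusted p = 0.0176, limma), which held. The brightest differed by -0.21 and was not called (adjusted p = 0.124).

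**Figure D3:**
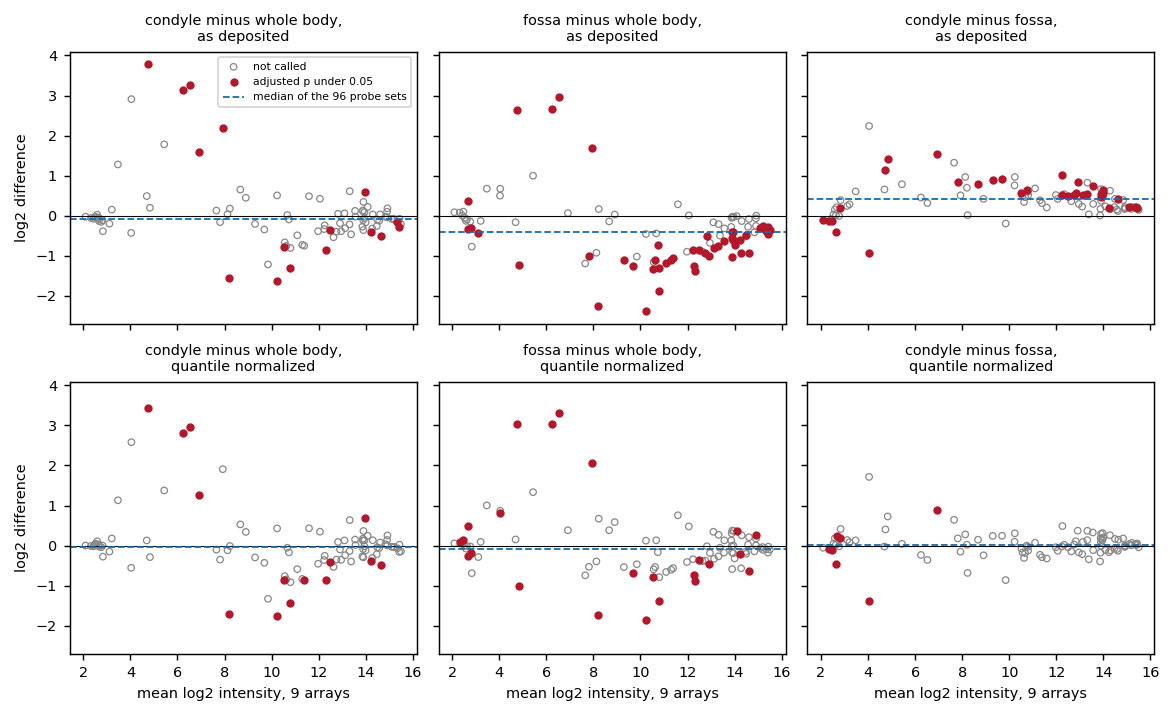
Log2 difference (y axis) against mean log2 intensity over the 9 arrays (x axis) for the 96 probe sets in 3 comparisons, as deposited in the upper row and after quantile normalization in the lower row. Filled points passed an adjusted p of 0.05, and the dashed line is the median of the 96. The lines for fossa against whole body and condyle against fossa move from -0.40 and 0.42 to near 0.

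Rps27l had the largest decrease among the representing probe sets. It encodes a close paralog of Rps27 that is known as a p53-inducible gene. In its brightest probe set (1435429_x_at) the log2 values were 10.49, 10.86 and 10.33 in condyle, 10.32, 9.54 and 10.03 in fossa, and 11.83, 12.01 and 11.73 in whole body. Both joint tissues lay below every whole body array. Condyle differed from whole body by -1.30 ± 0.22 (SE, adjusted p = 0.0195), which is 2.46-fold lower, and fossa by -1.90 ± 0.22 (adjusted p = 0.00218), 3.72-fold lower. After quantile normalization the differences were -1.42 (adjusted p = 0.0254) and -1.39 (adjusted p = 0.0094). The other probe sets of the gene gave -1.63 and -1.57 in condyle and -2.39 and -2.27 in fossa, and all 6 differences passed on both scales. Condyle and fossa were not shown to differ, with 0.60 ± 0.22 (adjusted p = 0.118) as deposited and -0.03 after quantile normalization. The fossa call held in all 22 alternatives, with adjusted p from 0.0016 to 0.0413. The condyle call held in 14 of 22, with adjusted p from 0.00893 to 0.0881. It was lost without condyle array 1 or 3 and without whole body array 1 or 2 (adjusted p from 0.0563 to 0.0693), with a common floor of 32, with centring on the member median and with the replicate block on either scale. Rps27 itself, a zinc finger protein of the small subunit, has only the background probe set (1460699_at), at 2.84 to 2.85 in condyle, 2.59 to 2.69 in fossa and 2.88 to 3.01 in whole body, so the ratio of the paralogs cannot be read here.

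Rps7, a small subunit protein needed early in small subunit assembly, was lower in both joint tissues with little spread. Its brightest probe set (1419364_a_at) read 14.15, 14.18 and 14.15 in condyle, 13.93, 13.97 and 14.00 in fossa, and 14.52, 14.64 and 14.56 in whole body. None of the 3 groups overlapped. The differences from whole body were -0.41 ± 0.04 in condyle (adjusted p = 0.00367) and -0.60 ± 0.04 in fossa (adjusted p = 0.000306), and after quantile normalization -0.38 (adjusted p = 0.00923) and -0.22 (adjusted p = 0.0234). Condyle exceeded fossa by 0.19 ± 0.04 as deposited (adjusted p = 0.0255), but quantile normalization turned this to -0.17 (adjusted p = 0.0731), and it was lost without any 1 condyle or fossa array (adjusted p from 0.0517 to 0.0809). The calls against whole body each held in 20 of 23 alternatives. Both were lost with centring on the member median and with quantile normalization without dim probe sets, the condyle call also without dim probe sets and the fossa call with the replicate block and quantile normalization. A second Rps7 probe set at 10.80 differed by -0.81 in condyle (adjusted p = 0.0939) and by -1.32 in fossa (adjusted p = 0.00983).

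Rpl22, an RNA-binding large subunit protein that cells can do without and that T cells need for their development, had probe sets that disagreed. The brightest (1453118_s_at) read 14.48, 14.66 and 14.65 in condyle, 14.27, 14.20 and 14.08 in fossa, and 15.14, 15.20 and 14.99 in whole body, again with no overlap. It differed by -0.51 ± 0.08 in condyle (adjusted p = 0.0152) and by -0.93 ± 0.08 in fossa (adjusted p = 0.000713), and both calls held after quantile normalization. Over all alternatives the condyle call held in 19 of 22, and was lost with centring on the member median, with quantile normalization without dim probe sets and with the replicate block and quantile normalization. The fossa call held in 21 of 22, and was lost with centring on the member median. A probe set at 11.09 (1416603_at) differed by -0.49 in condyle (adjusted p = 0.232) and by -1.17 in fossa (adjusted p = 0.0145, limma). After quantile normalization its fossa difference was -0.66 (adjusted p = 0.106). The dimmest probe set (1448398_s_at) read 8.22, 7.76 and 7.90 in condyle, 6.20, 6.30 and 6.78 in fossa, and 6.49, 6.31 and 6.29 in whole body. Here only condyle stood high, by 1.60 ± 0.18 over whole body (adjusted p = 0.0046) and by 1.54 ± 0.18 over fossa (adjusted p = 0.00277), and both passed after quantile normalization. The paralog Rpl22l1, which follows another naming pattern and is no member, read 9.79, 10.06 and 9.38 in condyle, 9.17, 9.55 and 9.33 in fossa, and 11.41, 11.75 and 11.39 in whole body. It was lower by calls in both tissues, with -1.77 ± 0.20 (adjusted p = 0.00455) and -2.17 ± 0.20 (adjusted p = 0.000831), and on both scales. Rpl22 and its paralog were thus lower together in their brightest probe sets.

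**Figure D4:**
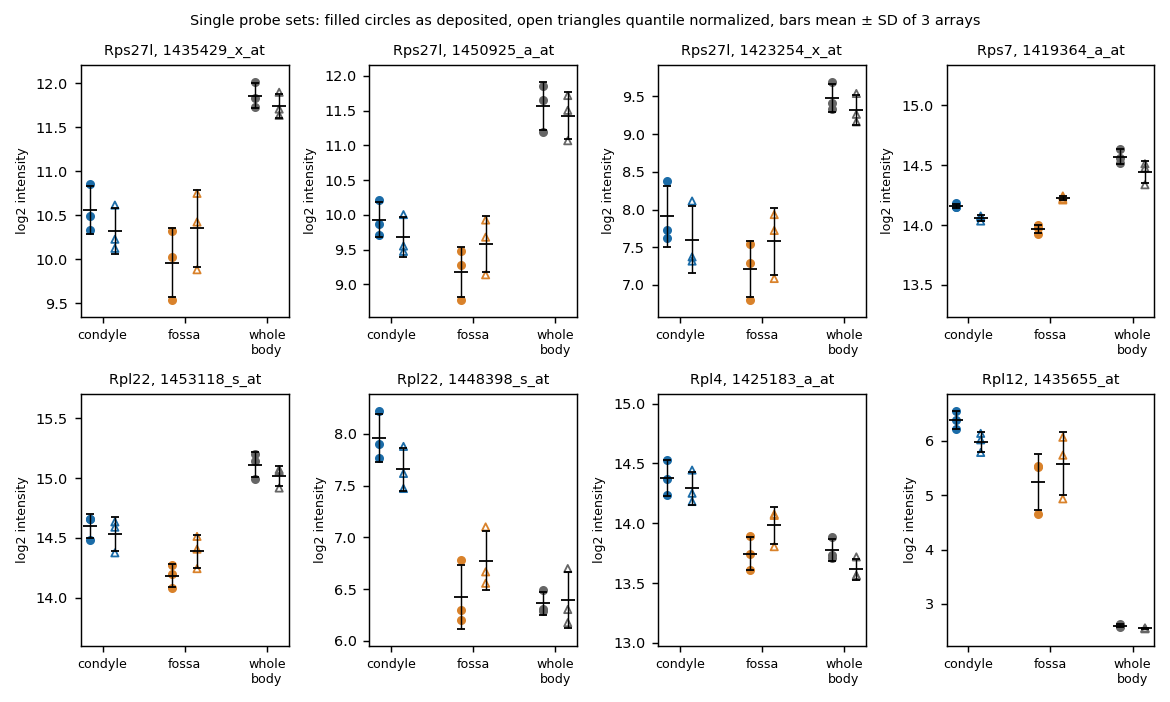
Log2 intensity (y axis) of 8 probe sets in condyle, fossa and whole body (x axis), with 3 arrays per group. Filled circles are as deposited, open triangles after quantile normalization, and bars give mean ± SD. All 3 Rps27l probe sets lie below the whole body in both tissues, while the Rpl22 probe sets 1453118_s_at and 1448398_s_at run in different ways.

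Rpl4, which lines the tunnel through which the new protein leaves the ribosome, was the bright gene that rose in condyle. Its probe set (1425183_a_at) read 14.53, 14.37 and 14.24 in condyle, 13.74, 13.89 and 13.61 in fossa, and 13.71, 13.74 and 13.88 in whole body. All condyle arrays lay above the other 6, and fossa and whole body overlapped. Condyle exceeded whole body by 0.60 ± 0.10 (adjusted p = 0.0192), and quantile normalization gave 0.68 (adjusted p = 0.0183). It exceeded fossa by 0.63 ± 0.10 (adjusted p = 0.00869), though only by 0.31 after quantile normalization (adjusted p = 0.11). The call against whole body held in 16 of 23 alternatives. It was lost without condyle array 1 or 2 and without whole body array 1 or 2 (adjusted p from 0.0558 to 0.0636), with centring on the member median and with the replicate block on either scale.

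Of the members tied to p53 or to growth signalling, Rpl11 and Rps6 moved only in part. Rpl11 (1417615_a_at) read 12.94, 12.93 and 12.52 in condyle, 12.18, 12.50 and 12.15 in fossa, and 13.26, 13.19 and 13.14 in whole body. It was lower in fossa by call as deposited (-0.92 ± 0.14, adjusted p = 0.0059), and after quantile normalization it differed by -0.38 (adjusted p = 0.115). In condyle it differed by -0.40 ± 0.14 (adjusted p = 0.152). Rps6, the substrate of the S6 kinases, read 9.08, 9.37 and 9.01 in condyle, 8.11, 8.17 and 8.79 in fossa, and 8.61, 8.27 and 8.63 in whole body. It was higher in condyle than in fossa as deposited (0.79 ± 0.21, adjusted p = 0.0429), with 0.15 after quantile normalization (adjusted p = 0.754). This call held in 6 of 23 alternatives, and was lost without any 1 condyle array, any 1 whole body array, fossa array 1 or fossa array 2 (adjusted p from 0.0518 to 0.124). Against whole body it did not pass in either tissue.

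Further calls on the deposited scale, those of Rps14, Rpl14, Rps2, Rpl35, Rpl13a, Rps20 and Rpl38 given here, did not pass with quantile normalization. Rps14, the gene of the human 5q deletion anaemia, differed in fossa by -0.94 ± 0.23 (adjusted p = 0.034), with 13.16 on fossa array 1 and 14.01 and 14.09 on the others. After quantile normalization it differed by -0.57 (adjusted p = 0.0953), and the call held in 8 of 22 alternatives, among them quantile normalization without fossa array 1. It was lost without any 1 condyle or whole body array (adjusted p from 0.0564 to 0.0869). Rpl14, a large subunit protein, differed in fossa by -1.10 ± 0.23 (adjusted p = 0.0202), and quantile normalization gave -0.54 (adjusted p = 0.189). It was also lost without fossa array 1 or 3 and whole body array 1 or 2 in turn (adjusted p from 0.0539 to 0.0644). Rps2, at the entry of the mRNA channel, was higher in condyle than in fossa by 0.75 ± 0.14 (adjusted p = 0.0131), with 0.33 after quantile normalization (adjusted p = 0.144). The brightest genes, Rpl35, Rpl13a and Rps20, differed in fossa by -0.36, -0.29 and -0.31 as deposited in their brightest probe sets, all called. After quantile normalization these differed by -0.10, -0.03 and -0.11, none called. This Rpl13a call was lost without any 1 array but fossa array 2 (adjusted p from 0.0531 to 0.103). The other Rpl13a probe sets stayed called lower in fossa after quantile normalization, by -0.47, -0.89 and -0.74 (adjusted p = 0.0253, 0.0144 and 0.0246, limma). Of these, 1417608_a_at was also called lower in condyle, by -0.86 as deposited and by -0.87 after quantile normalization (adjusted p = 0.0401 and 0.0415). Rpl38, named here after its values were seen because of its skeletal phenotype, read 14.33, 14.55 and 14.48 in condyle, 14.04, 14.33 and 14.35 in fossa, and 14.65, 14.82 and 14.68 in whole body. Its fossa difference was -0.47 ± 0.10 (adjusted p = 0.0217) and -0.16 after quantile normalization (adjusted p = 0.348).

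Among genes whose representing probe set is dim, that of Rpl12 rose in both tissues. Rpl12 sits at the base of the ribosomal stalk, which recruits elongation factors. Its only probe set under the rule (1435655_at) read 6.22, 6.37 and 6.54 in condyle, 5.54, 5.52 and 4.65 in fossa, and 2.57 to 2.63 in whole body, where it was at background on all 3 arrays. Condyle was at least 9.14-fold and fossa at least 4.15-fold higher than whole body (adjusted p = 0.000466 and 0.000809, limma), and both passed after quantile normalization. The fossa call was lost with a common floor of 32 under the intensities. Condyle exceeded fossa by 1.14 ± 0.24 as deposited (adjusted p = 0.0206, limma). After quantile normalization this was 0.40 (adjusted p = 0.442), and the call held in 13 of 23 alternatives. Rpl39, a very small protein of the exit tunnel, read 3.66, 3.65 and 3.42 in condyle, 4.42, 4.39 and 4.71 in fossa, and 4.21, 4.06 and 3.76 in whole body. Condyle minus fossa was -0.93 ± 0.14 (adjusted p = 0.00748) as deposited, and quantile normalization gave -1.37 (adjusted p = 0.0045). The level lay just above background, and the call was lost with a common floor of 32. Its paralog Rpl39l, best known from testis, read 8.59, 7.86 and 7.96 in condyle, 6.10, 6.94 and 7.40 in fossa, and 7.55, 8.16 and 8.32 in whole body. The fossa arrays were the lowest and most scattered, and none of its differences passed (adjusted p = 0.0586 for condyle minus fossa).

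Dim probe sets of Rpl41 and Rps24 rose in both joint tissues while the bright ones of these genes did not. Rpl41, which encodes a very short basic peptide, had bright probe sets at 14.09 and 13.10 that differed from whole body by -0.17 to 0.22, none called as deposited. Its probe set 1433530_at read 7.36, 7.99 and 7.80 in condyle, 7.73, 7.15 and 7.33 in fossa, and 3.79, 5.05 and 4.49 in whole body. These are differences of 3.27 ± 0.34 in condyle (adjusted p = 0.00361) and 2.96 ± 0.34 in fossa (adjusted p = 0.00206), or 9.68-fold and 7.78-fold. The remaining probe set (1454639_x_at) differed by 2.19 and 1.68, both called, and after quantile normalization the condyle call was lost (adjusted p = 0.0686). Rps24, a small subunit protein with alternatively spliced 3′ exons, showed the same split. Its probe set 1455195_at read 7.53, 7.60 and 7.19 in condyle, 7.44, 6.80 and 6.72 in fossa, and 3.61, 5.23 and 4.11 in whole body, or 8.74-fold and 6.39-fold higher than whole body. Its 4 brighter probe sets differed by -0.47 to -0.76 in condyle, none called, and by -0.50 to -1.11 in fossa, 3 of them called. Its dimmest probe set (level 2.48) was at background. For Rps9 the dimmest probe set (1426958_at) differed by 2.91 ± 0.66 in condyle and just missed the threshold (adjusted p = 0.0501). Dim probe sets of other genes varied. That of Rpl37a (level 4.83) was lower in fossa by call (-1.23, adjusted p = 0.0021). The dimmest of Rps10 (level 3.47) lay 1.28 above whole body in condyle and 0.67 above it in fossa, not called in either tissue. Of 22 genes with several probe sets, 1 gene in condyle (Rpl22) and 2 in fossa (Rps20 and Rps24) had probe sets called in opposite directions against whole body. The call of Rps20 upward rests on a probe set above background on 1 fossa array. The 18S controls also separate the whole body from both joint tissues, and their part in this was not tested.

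**Figure D5:**
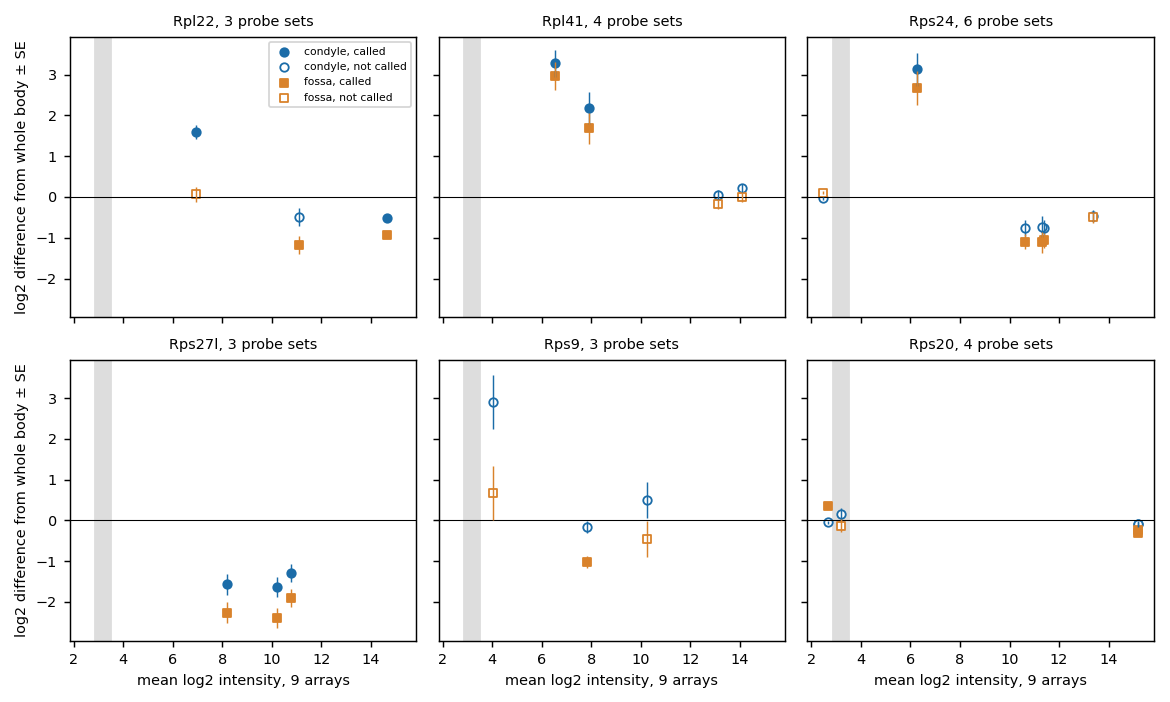
Log2 difference from whole body ± SE (y axis) against mean log2 intensity (x axis) for every probe set of 6 genes, as deposited, with circles for condyle and squares for fossa, filled where called. The grey band spans the background limits of the 9 arrays. The dim probe sets of Rpl41 and the Rps24 probe set 1455195_at stand 1.68 to 3.27 above the whole body, while the brighter ones of the same genes lie near or below 0. The dimmest Rps24 probe set lies at background.

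Genes with and without a pyrimidine run at a listed start were counted apart. Of 11 genes with a run, fossa minus whole body gave 6 lower and 0 higher as deposited, and 0 were called after quantile normalization, with medians of -0.36 and -0.06. Of 26 without, 10 were lower and 1 higher as deposited, and 4 lower and 5 higher after quantile normalization, with medians of -0.36 and 0.04. Shares of all genes called were 15.9% lower and 4.20% higher as deposited, and 9.75% and 8.47% after quantile normalization. The difference between genes with and without a run was not tested.

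Genes around the ribosome were set beside the members from lists, each gene by its brightest probe set. The shares of all genes called, given above, apply: as deposited 7.05% higher and 2.91% lower in condyle, 4.20% and 15.9% in fossa, and 16.2% and 2.82% in condyle against fossa. After quantile normalization they were 3.03% and 3.25% in condyle, 8.47% and 9.75% in fossa, and 5.60% and 4.22% in condyle against fossa. Of 20 elongation factor and other pyrimidine-tract genes, 2 were higher and 3 lower in condyle, and 0 higher and 9 lower in fossa, and 12 were higher in condyle than in fossa. After quantile normalization 1 was higher and 3 lower in condyle, 3 higher and 6 lower in fossa, and 1 higher in condyle than in fossa. The 3 that were lower in condyle were subunits of the initiation factor eIF3. Eif3m, a subunit at the edge of that complex, read 7.72, 7.93 and 7.62 in condyle, 6.95, 6.50 and 6.48 in fossa and 9.27 to 9.29 in whole body, which is 1.52 ± 0.14 below in condyle and 2.63 ± 0.14 below in fossa on the log2 scale (adjusted p = 0.0024 and 9.01e-05). Eif3e and Eif3h differed by -1.08 and -0.79 in condyle and by -1.25 and -1.30 in fossa. Calls of all 3 in both tissues held after quantile normalization. Eif4b, a helper of the cap-dependent helicase, was higher in condyle than in fossa by 1.46 ± 0.23 (adjusted p = 0.0082), with 0.80 after quantile normalization (adjusted p = 0.0819).

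Of 17 genes listed as initiation factors and regulators of pyrimidine-tract mRNAs, 1 was higher and 0 lower in condyle. In fossa 2 of them were higher and 6 lower. After quantile normalization 2 were higher and 0 lower in fossa, and the median turned from -0.35 to 0.12. The list also named Pdk1, which is neither an initiation factor nor such a regulator. The kinase gene Mtor was higher in both, at 6.85, 6.73 and 7.02 in condyle, 6.23, 6.81 and 6.45 in fossa and 5.59, 5.72 and 5.63 in whole body. Its differences of 1.22 ± 0.15 and 0.85 ± 0.15 (adjusted p = 0.00617 and 0.00998) passed on both scales. Myc, a transcription factor that drives ribosome production, was higher in condyle than in fossa by 2.27 ± 0.42 (adjusted p = 0.0135), with 1.59 after quantile normalization (adjusted p = 0.093).

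Of 44 ribosome assembly factors, 8 were higher and 1 lower in condyle, 4 higher and 6 lower in fossa, and 18 higher in condyle than in fossa. After quantile normalization 4 were higher and 1 lower in condyle, 5 higher and 3 lower in fossa, and 3 higher in condyle than in fossa. Their medians were 0.55, -0.26 and 0.82 as deposited, beside -0.03, -0.11 and 0.21 over all genes, and 0.44, 0.08 and 0.24 after quantile normalization. Nolc1, a nucleolar chaperone of small nucleolar RNPs, was higher in condyle by 3.30 ± 0.46 (adjusted p = 0.00998) and in fossa by 1.88 ± 0.46 (adjusted p = 0.0335). Pes1, needed for large subunit maturation, was higher by 2.00 ± 0.14 (adjusted p = 0.00091) and 0.93 ± 0.14 (adjusted p = 0.00654), and these calls of both genes held after quantile normalization. Nip7, a late processing factor, was lower in both, by -1.03 ± 0.16 (adjusted p = 0.0159) and -2.12 ± 0.16 (adjusted p = 0.00044), also on both scales.

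Of 14 RNA polymerase I genes, 2 were higher and 1 lower in condyle and 6 were lower in fossa. After quantile normalization 0 were higher and 1 lower in condyle and 4 were lower in fossa. Taf1d was lower in both, by -1.45 ± 0.24 and -2.25 ± 0.24. Polr1a, the catalytic subunit, was at background on the fossa arrays and at least 2.85-fold higher in condyle (adjusted p = 0.000316). Rrn3, the factor that recruits the polymerase, was higher in condyle than in fossa by 1.71 ± 0.16 (adjusted p = 0.00137), with 1 fossa array above background. Both of these calls held after quantile normalization. Of 76 mitochondrial ribosomal proteins, 3 were higher and 14 lower in condyle and 0 higher and 36 lower in fossa as deposited. After quantile normalization, 0 were higher and 14 lower in condyle, and 2 were higher and 16 lower in fossa. Mrps22 was lower in both tissues on both scales, by -1.70 ± 0.21 and -1.85 ± 0.21 as deposited, and Mrps14 by -0.85 ± 0.11 and -1.88 ± 0.11. Of 6 further cytosolic ribosomal proteins outside the naming rule, Rpl22l1 was the only one called against whole body, and none was called between condyle and fossa, with a median of 0.65 for that difference as deposited and 0.07 after quantile normalization.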

How the data were processed

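RNA from 9 samples was hybridised as biotin-labelled cRNA to an Affymetrix mouse expression array, per the labels' protocols. The authors' deposited table holds linear intensities, 3.25 to 67158.9, as the values show. Limma is named in the submitters' processing notes, without version or role, and background correction, normalization and probe summary are not given in the sources used here. The deposited intensities were converted to log2 (floor 1, reached by no value) and 64 array controls were set aside. Symbols came from the platform annotation, where 34945 probe sets have 1 symbol, 932 several and 9160 none. All 96 member gene IDs are in RefSeq GRCm38.p6, and 0 symbols changed.

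The test was limma 3.58.1 in R 4.3.3 (lmFit, eBayes) on 45037 probe sets, with 3 groups in 1 fit (6 residual and 0.986 prior degrees of freedom). Differences carry the fit's standard error, and Benjamini-Hochberg adjusted p under 0.05 was a call. Code was tested on simulated data. An array's background limit was the highest of 27 Bacillus subtilis controls. A probe set at or under it on all 3 arrays of a group was at background. A fold is then "at least", the brighter group's mean log2 value less the mean of the dimmer group after raising each of its arrays to that array's limit. The number of arrays limits the precision. Of the 96 probe sets, 43 end in _s_at or _x_at and may also bind near-identical transcripts, which this family with its many pseudogenes has.

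Named members were, per comparison, up to 5 largest rises and falls among called genes with no overlap of arrays, members called on both scales, the brightest and dimmest 3, the paralog pairs, Rps6, Rpl5 and Rpl11. Up to 4 genes with the largest called difference were eligible from each other list. Members, lists and these rules were chosen with earlier results of these data known. The main fit has no block for the replicate numbers.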

Additional observations from a re-analysis of the deposited data

Results flagged for a closer look

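The Rpl22 probe set 1448398_s_at differed between condyle and fossa by 1.54 (log2) as deposited (limma, adjusted p = 0.00277) and by 0.88 after quantile normalization (adjusted p = 0.0353), so its difference from whole body was not alike in the joint tissues. All 3 condyle arrays lay above all 3 fossa arrays. The Rpl39 probe set 1423032_at differed the other way, by -0.93 (adjusted p = 0.00748) and by -1.37 (adjusted p = 0.0045). All 3 of its fossa arrays lay above the condyle arrays, at levels of 3.42 to 4.71 near background.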

How the results depend on the processing

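Counts of member probe sets called, in the order of the F test, condyle against whole body, fossa against whole body and condyle against fossa, were 50, 16, 49 and 35 as reported. They were 25, 14, 24 and 7 with quantile normalization, and 18, 15, 20 and 3 when fossa array 1 was also left out, a setting chosen after seeing the data. Centring each array on the member median gave 11, 9, 8 and 1. This setting takes out any shift the members share. Calls that rest on that shift are lost, and smaller differences in its direction turn sign, by construction. With 1 probe set per gene they were 23, 6, 21 and 15, and 7, 5, 7 and 1 with quantile normalization as well. A common floor of 32 gave 25 in the F test, 26 in fossa minus whole body and 8 in condyle minus fossa. Leaving out dim probe sets gave 23 in condyle minus fossa, and with quantile normalization 15 in the F test, 14 in fossa minus whole body and 1 in condyle minus fossa. Without _s_at and _x_at probe sets 23, 8, 22 and 21 of 53 tested were called. Leaving out 1 array at a time gave 39 to 49, 7 to 17, 37 to 49 and 18 to 33. Same-numbered samples were not treated as pairs, because the labels name no embryos. Of 9 correlations of their deviations 1 was above 0.1, from -0.335 to 0.139, beside -0.141 to 0.405 for other numbers. These values cannot decide whether same-numbered samples share an embryo. A replicate block gave 45, 11, 44 and 28, and 16, 5, 19 and 3 with quantile normalization. Fewer probe sets tested account for part of the lower counts in the settings with 1 probe set per gene and without _s_at and _x_at; otherwise the cause was not tested. Among the called differences of named members, some signs turned with member-median centring. In fossa minus whole body these were Rpl13a (0.22), Rpl35 (0.15), Rps20 (0.19) and Rps27 (0.19). In condyle minus fossa they were Rps27 (-0.21) and Rps7 (-0.21). The last also turned with quantile normalization, alone, without dim probe sets, with 1 probe set per gene or with the replicate block (-0.17 each), and without fossa array 1 (-0.16). Among the other results, 1142 values kept their side of the threshold or, for medians, stayed within the spread between arrays. Another 230 lost a call, 19 gained one and 8 medians moved by more than that spread. Signs of uncalled differences and of small medians could turn within the 1142. The condyle minus whole body median of -0.08, for instance, was 0.03 with median centring.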
